A study of Mus musculus with 2207 samples.

Results

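The 37 RNAs described here are those encoded by the mitochondrial genome, chosen as every row of the expression tables whose gene symbol starts with mt-. They were 37 of 52636 rows, and comprised 2 ribosomal RNAs, 13 messenger RNAs and 22 transfer RNAs. All 37 lie on the mitochondrial chromosome of mm10. They were measured by RamDA-seq, a random-primed full-length method for total RNA, in 2207 single nuclei that were sorted by DAPI from mouse brain cortex.

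Mitochondria keep a small circular genome of their own, which is read from both strands as long precursor RNAs. The tRNAs are spaced between the other genes, and cutting the precursors at the tRNAs releases the rRNAs and mRNAs. The mRNAs encode core subunits of respiratory complexes I, III and IV and of ATP synthase, while the remaining subunits, the polymerase and the ribosomal proteins are encoded in the nucleus and imported. Mitochondria lie in the cytoplasm, so in a preparation of nuclei their RNA is a small part of what is sequenced. How these RNAs came into the sorted wells was not measured.

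The nuclei came from 6 pools of 3 mice each, all on a C57BL/6 background (C57BL6/J in the study's methods), 14 weeks old and given tamoxifen at 3 weeks (100 mg/kg, 2 times). Ehmt1 encodes GLP, a histone H3 lysine 9 methyltransferase. On 96-well plates there was a pool labelled WT (Ehmt1+/+) and a pool labelled Ehmt1Δ/+. On 384-well plates there were 4 pools, and all 4 carried the iTg transgene (Rosa26-CAG-FLAG-Ehmt1, which makes FLAG-GLP after Cre enters the nucleus). The pools called WT and Ehmt1Δ/+ on the 384-well plates carried iTg without CamKII-CreER, per the labels. The study's text can be read as giving all 4 pools of the 384-well plates CamKII-CreER, so the contrasts called with and without CamKII-CreER below rest on the labels. The pools called iTg (Ehmt1+/+) and Ehmt1Δ/+; iTg carried CamKII-CreER, which acts in postnatal forebrain neurons, so glia were not expected to make FLAG-GLP. The labels gave 1664 nuclei as neurons, 397 as oligodendrocytes and the remainder as microglia, with 46 to 73 oligodendrocytes and 16 to 36 microglia per pool. The mouse of origin is not labelled for any nucleus. Each pool therefore gave 1 value per cell type, and nuclei or plates were never counted as replicates.

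Several facts of the whole series bear on these RNAs. The median read total per nucleus was between 323273 and 397880 in the neurons of every pool. In glia it was between 441701 and 510639 on the 96-well plates but only between 39940 and 54877 on the 384-well plates. The authors filtered the 96-well nuclei on their ratio of mitochondrial and ribosomal reads, and the 384-well nuclei on gene body coverage alone, so the 96-well shares had passed a filter that the 384-well shares had not. Cell type labels matched their markers: 6 microglial markers summed to between 1698 and 2797 RPKM in microglia and to at most 3.90 in the other types, and 6 oligodendrocyte markers summed to between 2939 and 4483 RPKM in oligodendrocytes. Ehmt1 was higher, not lower, in each pool labelled Ehmt1Δ/+ (in neurons 31.2 against 18.7 RPKM on the 96-well plates, and 31.7 against 19.5 and 33.9 against 20.7 on the 384-well plates). A value over the whole gene does not read the deleted part alone, so genotype directions below rest on the labels.

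Part of the mitochondrial genome has a near-identical copy in nuclear DNA, and the sequences are shown because they set which reads can be assigned. Among the annotated transcripts (GENCODE M21, mm10), 7 rows on the minus strand of chromosome 1, between 24611535 and 24616197, matched mitochondrial genes at 99% identity or more over at least 75 bases. Their matches lie between chrM:6390 and chrM:11042, a stretch of 4653 bases that holds all or part of 8 protein genes and 5 tRNAs. It is called the copied stretch below, although the bases between the matches were not compared. The next lines give a 75-base stretch of mt-Co1, the catalytic subunit of complex IV, and of 3 nuclear copies in their own strand, with capitals at the bases that differ from mt-Co1.
mt-Co1, chrM:6390-6464 (bases 1063 to 1137 of the gene): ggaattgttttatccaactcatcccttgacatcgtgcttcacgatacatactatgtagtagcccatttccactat
Gm29216, chr1:24616114-24616188 (minus strand): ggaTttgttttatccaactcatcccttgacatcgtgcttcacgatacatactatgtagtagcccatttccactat
Gm13340, chr2:22588511-22588585 (minus strand): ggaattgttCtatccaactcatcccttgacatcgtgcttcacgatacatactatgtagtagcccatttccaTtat
Gm11512, chr11:90538889-90538963 (minus strand): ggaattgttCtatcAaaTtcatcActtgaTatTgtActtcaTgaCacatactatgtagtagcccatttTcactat
Counting from the first base of mt-Co1, Gm29216 carried A1066T, which was its only difference over 483 bases. Gm13340 carried T1072C and C1134T in this stretch and 37 differences over all 1545 bases. Gm11512 had 10 differences in the stretch and 61 over 654 bases. The 75-nt reads of this study could therefore match mt-Co1 and Gm29216 equally well over most of that length.

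Where no base differs, reads cannot be told apart at all. The first 75 bases of mt-Co3, another complex IV subunit, are identical to those of Gm28437, as the next lines show (all lower case, since nothing differs).
mt-Co3, chrM:8607-8681: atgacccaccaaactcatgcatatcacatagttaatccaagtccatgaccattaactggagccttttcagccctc
Gm28437, chr1:24613897-24613971 (minus strand): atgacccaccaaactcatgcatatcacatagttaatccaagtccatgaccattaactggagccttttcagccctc
Averaged over all 2207 nuclei, the level was 82.6 RPKM for mt-Co3 and 82.7 RPKM for Gm28437. The same held for 5 other pairs, with a copy-to-mitochondrial ratio of 1.004 for Gm28661 and mt-Co2, 1.001 for Gm29216 and mt-Co1, 1.01 for Gm10222 and mt-Nd4l, 1.02 for Gm10925 and mt-Atp6, and 1.02 for Gm28438 and mt-Nd3. Gm28439, which copies 876 bases of mt-Nd4, was at a ratio of 0.446. Copies with more differences were lower, at 0.112 for Gm13340 and mt-Co1, 0.265 for Gm13341 and mt-Co2, and 0.0427 for Gm13339 and mt-Nd2.

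The deposited values show reads divided between such rows. Of the values above 0 of the 8 protein rows within the copied stretch, 70.5% were not whole reads (57.8% to 83.8% by row). Among the 5 protein rows outside it the figure was 16.9% (6.34% to 29.4%). The lowest was mt-Cytb, the complex III subunit, and the highest mt-Nd5. The plot of values by row in genome order shows this step. Levels of rows within the stretch are therefore uncertain, while both rRNAs, mt-Nd1, mt-Nd2, mt-Nd5, mt-Nd6 and mt-Cytb lie outside it. Of the rRNAs, 1.74% of the values of mt-Rnr1 and 45.5% of those of mt-Rnr2 were not whole. Neighbouring mitochondrial genes also overlap, by 43 bases for mt-Atp8 and mt-Atp6, 14 for mt-Nd5 and mt-Nd6, 7 for mt-Nd4l and mt-Nd4, and 3 for mt-Co1 and mt-Ts1. The methods give default counting, which makes no use of strand and does not divide reads. As the deposited values hold divided reads, the settings were not all defaults, and whether strand was used is not known. For mt-Nd6 and mt-Ts1, which lie on the minus strand, the strand of the reads can therefore not be told.

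**Figure D1:**
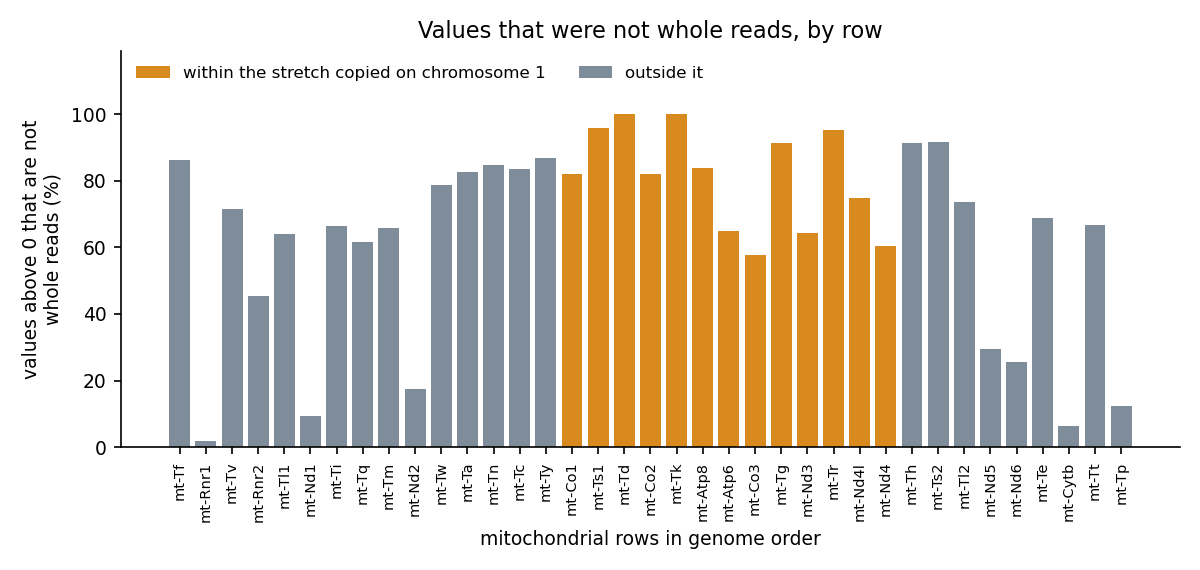
Percentage of values above 0 that are not whole reads (y axis) for each of the 37 mitochondrial rows in genome order (x axis). Orange bars mark the 13 rows within the stretch copied on chromosome 1, among which the 8 protein rows lie between 57.8% and 83.8%, and grey bars the 24 rows outside it, where short tRNA rows are also often divided.

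Mitochondrial RNA made up a small and very variable share of each nucleus. The share of reads on the 37 rows ranged from 0 to 13.4% over the 2207 nuclei, with a median of 0.102%, and 0.218% of all reads pooled. It was above 1% in 23 of 1664 neurons (1.38%), in 73 microglia (50% of them) and in 69 of 397 oligodendrocytes (17.4%). No mitochondrial read was seen in 7 nuclei, 4 of them neurons and 3 microglia. Their depths allow shares of up to 0.000793% to 0.0142% (limit from 3 reads, for counting error only).

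Microglia had the highest share and neurons the lowest in every pool. The mean share of microglial nuclei was 1.48% in WT (96-well), 0.360% in Ehmt1Δ/+ (96-well), 1.48% in WT (384-well), 5.17% in Ehmt1Δ/+ (384-well), 4.12% in iTg and 2.59% in Ehmt1Δ/+; iTg. For oligodendrocytes the means were 0.450%, 0.168%, 0.343%, 0.901%, 1.14% and 0.603% in the same order. For neurons they were 0.170%, 0.0481%, 0.0855%, 0.199%, 0.252% and 0.131%. The lowest microglial pool (0.360%) was above the highest neuronal pool (0.252%), while oligodendrocytes overlapped with both, and within each pool the order was the same.

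The spread between nuclei of a pool was wide. Among the neurons of Ehmt1Δ/+ (384-well), for example, the lowest share was 0%, the median 0.103% and the highest 3.33%. Among the WT neurons of the 96-well plates, the lowest was 0.000769%, the median 0.116% and the highest 1.14%. Microglia spread more: the 20 nuclei of iTg had a lowest share of 0%, a median of 1.49% and a highest of 13.4%. In the plot of shares by pool, the boxes of microglia lie above those of neurons in 6 of 6 pools by their medians.

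**Figure D2:**
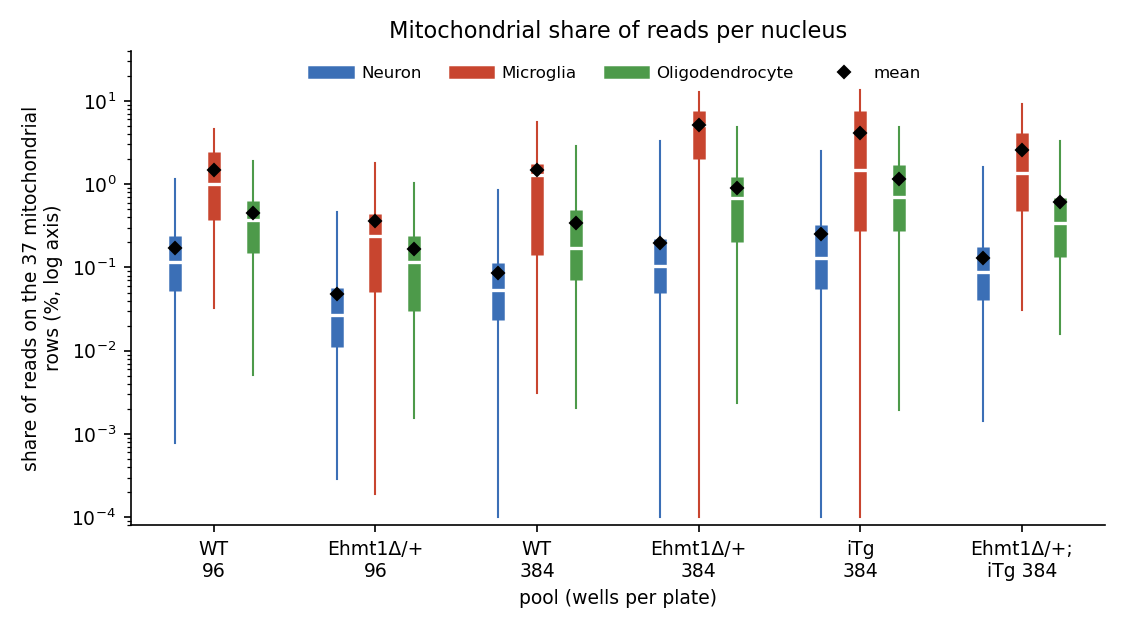
Share of reads on the 37 mitochondrial rows per nucleus (%, log y axis) for each cell type in each of the 6 pools (x axis, with wells per plate). Boxes span the quartiles, white marks the medians, diamonds the means and lines the whole range, with nuclei at 0 drawn at 0.0001%. Microglia (red) are the highest and neurons (blue) the lowest in each pool, and Ehmt1Δ/+ of the 96-well plates is the lowest pool for all 3 cell types.

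Paired by pool, the mean share was 2.53% ± 1.81 (SD, n = 6 pools) in microglia, 0.601% ± 0.364 in oligodendrocytes and 0.148% ± 0.0750 in neurons. The difference between microglia and neurons was 2.39 percentage points ± 1.75 (SD), 7.48 to 25.97 times higher and in the same direction in 6 of 6 pools (exact two-sided permutation test by sign flips over pools, p = 0.03125). Oligodendrocytes exceeded neurons by 0.454 points ± 0.295, or 2.65 to 4.61 times, in 6 of 6 pools (exact permutation test, p = 0.03125). Microglia exceeded oligodendrocytes by 1.93 points ± 1.49, or 2.15 to 5.74 times, in 6 of 6 pools (exact permutation test, p = 0.03125). With 6 pools, 0.03125 is the smallest p that this test can give, and it remained 0.03125 after Benjamini-Hochberg adjustment over the 4 paired comparisons. A share cannot tell more mitochondrial RNA from less of other RNA in a nucleus. Read depth went with cell type, glia being shallower than neurons on the 384-well plates and deeper on the 96-well plates, and its part in the result was not tested.

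Neurons themselves differed by class. A neuron was taken as excitatory where Slc17a7, the vesicular glutamate transporter gene, exceeded the larger of Gad1 and Gad2, the genes of GABA synthesis, and as inhibitory where it was below it. The mean share in excitatory and inhibitory neurons was 0.149% and 0.233% in WT (96-well), and 0.0386% and 0.0964% in Ehmt1Δ/+ (96-well). It was 0.0685% and 0.126% in WT (384-well), and 0.153% and 0.423% in Ehmt1Δ/+ (384-well). In iTg the values were 0.213% and 0.411%, and in Ehmt1Δ/+; iTg they were 0.113% and 0.213%. Inhibitory neurons were higher in each of the 6 pools, as the lines joining both classes in the plot show.

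Excitatory neurons were at 0.361 to 0.639 times the share of inhibitory neurons, a difference of -0.128 points ± 0.0867 (SD, n = 6 pools, exact two-sided permutation test, p = 0.03125, the smallest possible). Each pool held 190 or more excitatory and 44 to 75 inhibitory nuclei, and 4 neurons that met neither condition were left out. Median read totals of inhibitory neurons were above those of excitatory neurons on the 96-well plates (357993 against 340759 in WT) and below them on the 384-well plates (246009 against 333929 in Ehmt1Δ/+; iTg), and the part of depth in the difference was not tested.

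**Figure D3:**
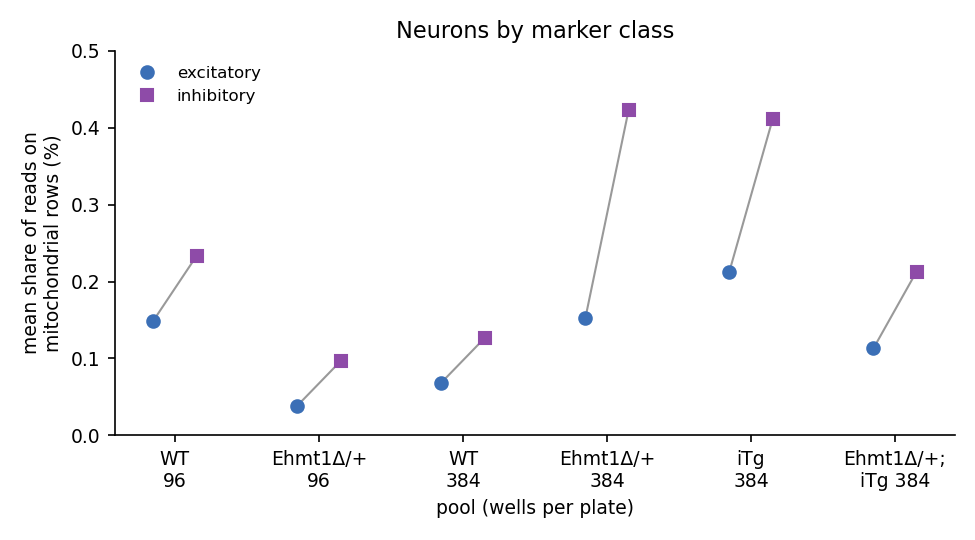
Mean share of reads on the 37 mitochondrial rows (%, y axis) in excitatory (blue circles) and inhibitory (purple squares) neurons of each pool (x axis). Lines join the classes of a pool, and in 6 of 6 pools the inhibitory mean lies above the excitatory mean.

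The ribosomal RNAs made up most of the signal. Across the 18 pool and cell type groups, 72.1% to 78.9% of mitochondrial reads fell on the rRNAs, 20.98% to 27.7% on the protein genes and 0.170% to 0.252% on the tRNAs. mt-Rnr1, the 12S rRNA of the small mitochondrial ribosomal subunit (chrM:70-1024), averaged 526.5 RPKM ± 247.9 (SD, n = 6 pools) in neurons, 8804 ± 6077 in microglia and 2110 ± 1148 in oligodendrocytes. mt-Rnr2, the 16S rRNA of the large subunit (chrM:1094-2675), averaged 398 ± 232.8, 6977 ± 5236 and 1649 ± 1124 RPKM in these types. Per length, mt-Rnr2 was below mt-Rnr1 in 18 of 18 groups, at a ratio of 0.533 to 0.989. These SDs hold the difference between pools in their overall share.

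mt-Co1 had the highest RPKM of the 13 protein genes in each of the 18 groups. Its level in neurons was 108.9 RPKM in WT and 30.2 in Ehmt1Δ/+ of the 96-well plates, and 44.2 in WT, 103.9 in Ehmt1Δ/+, 130.5 in iTg and 67.5 in Ehmt1Δ/+; iTg of the 384-well plates. In microglia of the same 6 pools it was 827, 184.7, 840, 2877, 2374 and 1343 RPKM. The lowest microglial pool was above the highest neuronal pool. The other complex IV subunits, mt-Co2 and mt-Co3, averaged 22.7 ± 16.2 and 32.7 ± 16.8 RPKM in neurons (SD, n = 6 pools), 324 ± 187.9 and 588 ± 427 in microglia, and 77.8 ± 36.2 and 135.5 ± 87.4 in oligodendrocytes.

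Complex I subunits spanned a wide range of levels. mt-Nd1 ranked from 2 to 4 among the protein genes of each group, at 39.96 ± 19.9 RPKM in neurons, 618 ± 443 in microglia and 152.1 ± 85.2 in oligodendrocytes (SD, n = 6 pools). mt-Nd4 and mt-Nd5 followed with 25.4 ± 12.1 and 18.4 ± 9.28 RPKM in neurons, and mt-Nd2 with 12.7 ± 6.31. mt-Nd6, the only mRNA on the minus strand, was at 13.3 ± 7.998 RPKM in neurons, 254.01 ± 186.4 in microglia and 54.5 ± 33.6 in oligodendrocytes. mt-Nd4l (7.56 ± 3.53) and mt-Nd3 (3.38 ± 1.70) were the lowest of complex I in neurons, although both rows share reads with chromosome 1. mt-Cytb, of complex III, was at 24.1 ± 11.9 RPKM in neurons, 438 ± 296.2 in microglia and 90.9 ± 50.4 in oligodendrocytes. Of the ATP synthase subunits, mt-Atp6 averaged 24.6 ± 14.3 and mt-Atp8 3.44 ± 1.64 RPKM in neurons.

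Transfer RNA rows were close to the limit of detection. Only mt-Ts1, one of the serine tRNAs, was above 0 in more than 50% of nuclei (59.99%). Its level over the 6 pools was 8.41 to 35.1 RPKM in neurons (mean 20.9), 46.9 to 815 in microglia (mean 411) and 26.5 to 166.7 in oligodendrocytes (mean 96.4). Its sequence is printed to show where it meets mt-Co1, with capitals at the 3 bases that lie opposite the end of mt-Co1.
mt-Ts1, chrM:6870-6938 (minus strand): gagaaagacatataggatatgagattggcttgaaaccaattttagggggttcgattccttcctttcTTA
It lies within the bounds of the stretch copied on chromosome 1, but at 69 bases it was too short to be matched itself. Of its values, 95.8% were not whole reads. mt-Tp and mt-Tl1 were next, at a mean of 33.8 and 25.4 RPKM over the 18 groups against 175.96 for mt-Ts1. mt-Ta (0.291), mt-Tk (0.360) and mt-Tw (0.381) were the lowest, each with 10 to 13.7 reads in all nuclei together. Across the 22 tRNA rows, 0.634% to 59.99% of nuclei had a value above 0. The tRNA rows are 59 to 75 bases long, no longer than 1 read, so reads of a mature tRNA and reads that run into a neighbouring gene cannot be told apart.

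Gene by gene, the difference between cell types had the same direction as the share. Levels were tested with limma on log2(mean RPKM + 0.1) of 18 values with the pool as a block, over 22735 rows detected in 10% or more of the nuclei of 1 cell type in all 6 pools. This filter kept 19 of the 37 mitochondrial rows (both rRNAs, 13 protein genes and mt-Tl1, mt-Ty, mt-Ts1 and mt-Te). In neurons alone 16 rows would have passed and in microglia all 19, so mt-Tl1, mt-Ty and mt-Te entered through microglia, where they are high. The 16 rows that passed in neurons were all called higher in microglia than in neurons at an adjusted p of 0.05. Of all rows tested, 19.7% were called higher and 44.7% lower (64.4% in either direction). mt-Tl1, mt-Ty and mt-Te were called higher too, but their entry through microglia favoured this direction, so their calls are no support. The 19 rows are not independent of each other, as their shares moved together from nucleus to nucleus.

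The differences were alike in size from gene to gene. Between microglia and neurons they ran from 3.62 (mt-Atp8) to 4.06 (mt-Nd6) on the log2 scale over the rows that passed in neurons. The median of all 19 rows was 3.84, while the median over all rows tested was -0.80. mt-Rnr1 differed by 3.84 (SE 0.23, adjusted p = 1.28e-08), mt-Co1 by 3.84 (SE 0.27, adjusted p = 5.57e-08) and mt-Nd6 by 4.06 (SE 0.21, adjusted p = 3.00e-09) in limma. Between oligodendrocytes and neurons the 19 rows were again called higher, with a median of 1.96 (all rows -0.57, with 13.3% called higher, 39.1% lower and 52.4% in either direction). There mt-Rnr1 differed by 1.96 (SE 0.23, adjusted p = 1.06e-05) and mt-Nd6 by 2.01 (SE 0.21, adjusted p = 3.57e-06), and the smallest difference was 1.43 for mt-Ty (SE 0.44, adjusted p = 0.0148). Between microglia and oligodendrocytes the median was 1.86 (all rows -0.09, with 21.9% called higher, 22.2% lower and 44.1% in either direction), again with 19 of 19 called higher. Of these, mt-Tl1, mt-Ty and mt-Te had entered through microglia, so their calls are no support here either. When each value was centred on the median of all rows tested, the 3 medians were 4.74, 2.82 and 1.90 and the 19 calls remained, while the calls over all rows for microglia against neurons moved from 4469 higher and 10170 lower to 7985 higher and 7366 lower.

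**Figure D4:**
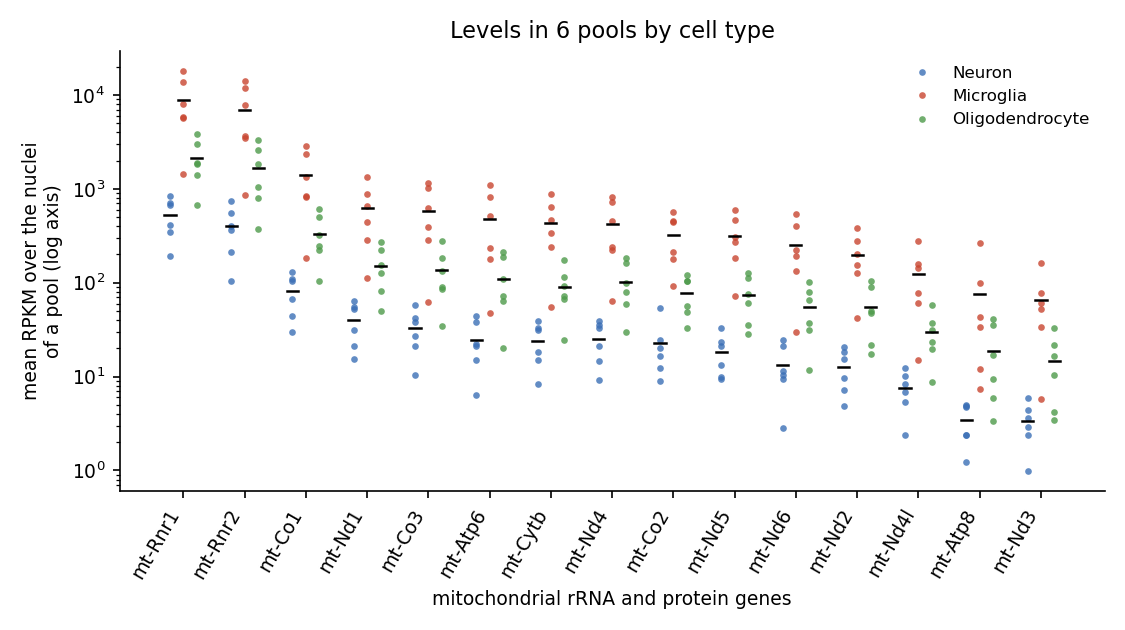
Mean RPKM over the nuclei of a pool (log y axis) for the 2 rRNAs and 13 protein genes (x axis), with 1 point per pool and black bars at the mean of the 6 pools. For mt-Co1 the microglial points lie between 184.7 and 2877 RPKM and the neuronal points between 30.2 and 130.5, and the spacing of the cell types is alike from mt-Rnr1 to mt-Nd3.

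Plate format went with the make-up of the mitochondrial reads, apart from their amount. rRNAs took 72.1% to 75.3% of mitochondrial reads in the 6 groups of the 96-well plates and 75.4% to 78.9% in the 12 groups of the 384-well plates, so the formats did not overlap. Of the reads on protein genes, mt-Co2 held 7.20% to 8.56% on the 96-well plates against 2.59% to 3.71% on the 384-well plates, and mt-Nd5 held 12.8% to 14.98% against 6.78% to 9.81%. In the other direction, mt-Atp6 held 3.06% to 3.94% against 4.32% to 6.15%, mt-Co3 5.47% to 6.28% against 7.31% to 8.90%, and mt-Nd6 1.13% to 1.84% against 1.94% to 2.80%. The other 8 protein genes overlapped between formats. The RPKM ratio of mt-Co1 to mt-Co2 was 1.82 to 2.13 on the 96-well and 4.68 to 6.77 on the 384-well plates. Plate format, the animals and the iTg transgene, which by the labels all 384-well pools and no 96-well pool carried, differ together here and cannot be told apart, and these contrasts were read after the values were known and carry no test.

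Between genotype pools the share moved by several fold, but in opposite directions in the 2 plate formats. On the 96-well plates, Ehmt1Δ/+ neurons were at 0.283 times the WT share, microglia at 0.244 times and oligodendrocytes at 0.372 times. On the 384-well plates the ratios were 2.33, 3.50 and 2.62 times. Of the pools with CamKII-CreER, Ehmt1Δ/+; iTg was at 0.519, 0.629 and 0.527 times iTg. Each ratio compares 1 pool with 1 pool and has no replicate check. All 13 protein genes and both rRNAs moved in the direction of the share in each of these contrasts and cell types.

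mt-Co1 shows the pattern gene by gene. Its log2 ratio of Ehmt1Δ/+ to WT was -1.85 in neurons, -2.16 in microglia and -1.25 in oligodendrocytes of the 96-well plates. On the 384-well plates it was 1.23, 1.78 and 1.16. mt-Cytb has no near-identical copy on chromosome 1. Its ratios were -1.89, -2.12 and -1.56 on the 96-well and 1.13, 1.40 and 0.78 on the 384-well plates. Rows with and without a near-identical copy thus had the same signs.

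The presence of CamKII-CreER also had opposite directions by genotype. iTg was above WT on the 384-well plates, at 2.95 times in neurons, 2.79 times in microglia and 3.33 times in oligodendrocytes. Ehmt1Δ/+; iTg was below Ehmt1Δ/+, at 0.656, 0.502 and 0.669 times. The plot of ratios between pools shows that the 3 cell types shared the sign in all 5 pairs. Pairs that share a pool are not independent of each other.

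**Figure D5:**
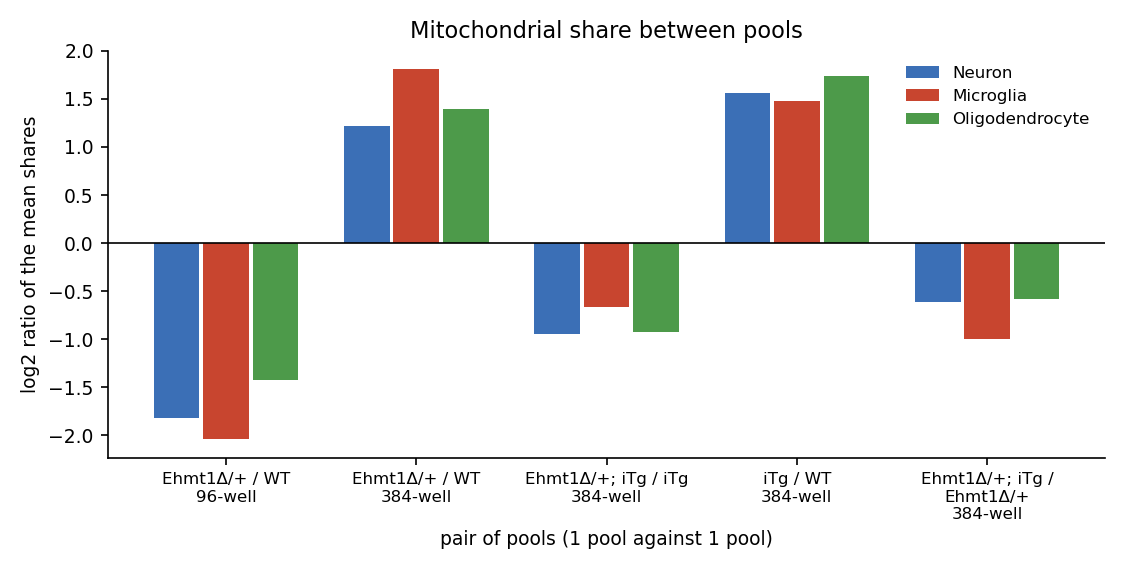
Log2 ratio of the mean mitochondrial share of reads between 2 pools (y axis) for 5 pairs of pools (x axis) and 3 cell types, each bar being 1 pool against 1 pool. The bars of a pair share their sign, which is negative for Ehmt1Δ/+ against WT on the 96-well plates (-1.82 in neurons) and positive on the 384-well plates (1.22 in neurons).

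The plate a nucleus was sorted into cannot be told apart from its pool. The labels name 4 plate codes for each 96-well pool, of which 3 (numbers 2, 4 and 5) occur in both genotypes. Under these codes, however, 86.3% to 96.8% of the wells are named by both pools, so a code does not stand for 1 physical plate. Mean neuronal shares under the 3 codes were 0.166%, 0.178% and 0.150% in WT and 0.0442%, 0.0588% and 0.0460% in Ehmt1Δ/+, a ratio of 0.267, 0.330 and 0.307. Ratios were 0.361, 0.281 and 0.237 in microglia and 0.467, 0.436 and 0.439 in oligodendrocytes. All codes of WT neurons, including number 3 (0.187%), were thus above all codes of Ehmt1Δ/+ neurons, including number 7 (0.0429%), but the nuclei of 1 pool come from the same 3 mice whatever their code. On the 384-well format WT was alone under code 2 while the other 3 pools shared code 1, in which 99.5% of the wells are named by more than 1 pool.

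Tested over the 4 pools without CamKII-CreER with plate format as a block, limma called 0 of 23853 rows in neurons, 0 of 13686 in microglia and 0 of 12832 in oligodendrocytes (0% of each). Without adjustment, 10.2%, 1.93% and 4.72% of these rows had a p under 0.05. Of the mitochondrial rows, 16, 22 and 17 were tested, 0 had a p under 0.05, and their smallest adjusted p in limma was 0.856, 0.920 and 0.928. The comparison with and without CamKII-CreER in neurons called 0 of 23068 rows (0%), of which 1.52% had an unadjusted p under 0.05, and 0 of 16 mitochondrial rows. These fits have 1 residual degree of freedom, so a lack of calls does not show a lack of difference.

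Other values moved with the pool contrasts. The summed RPKM of 6 neuronal markers in microglia was 75.6 in WT and 18.0 in Ehmt1Δ/+ of the 96-well plates, and in oligodendrocytes it was 61.1 and 16.4, so these neuronal RNAs were lower in the glia of the pool with the lower mitochondrial share. On the 384-well plates the same sum in microglia was 7.52 in WT, 6.19 in Ehmt1Δ/+, 1.49 in iTg and 14.1 in Ehmt1Δ/+; iTg, which is not the order of the mitochondrial share. Their part in the result was not tested.

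Across the nuclei of a pool, mitochondrial rows rose and fell as a unit. Spearman's rho between the rRNA share and the protein gene share of neurons was between 0.945 and 0.979 in the 6 pools, and between 0.847 and 0.947 for protein rows within against outside the copied stretch. These correlations are descriptions across nuclei that share a pool, with no p. Read total gave rho of 0.332 in WT and 0.158 in Ehmt1Δ/+ neurons of the 96-well plates, and between -0.244 and -0.159 on the 384-well plates. The sign for read total thus went with plate format. The number of genes detected gave rho between -0.253 and 0.0257, positive only in WT of the 96-well plates.

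Nuclear-retained long noncoding RNAs, a list of 11 with Malat1, Meg3 and Snhg11 the highest in neurons, went the other way. Their share of the remaining signal had rho between -0.384 and -0.220 with the mitochondrial share in neurons, negative in 6 of 6 pools, and between -0.417 and -0.0517 in oligodendrocytes. A list of 15 abundant cytoplasmic mRNAs of neurons had Camk2a and Snap25 among its highest. In neurons its rho was positive only in WT of the 96-well plates (0.348), and was -0.0960 in Ehmt1Δ/+ there. On the 384-well plates it was -0.335 in WT, -0.354 in Ehmt1Δ/+, -0.433 in iTg and -0.189 in Ehmt1Δ/+; iTg. A negative rho in neurons was thus not particular to the nuclear-retained list. In microglia, where only the 96-well pools had 30 or more nuclei, that list gave 0.767 in WT (36 nuclei) and 0.433 in Ehmt1Δ/+ (32 nuclei), and the neuronal markers gave 0.423 and 0.550. The microglial markers gave 0.600 and 0.565 in these pools, and the number of genes detected 0.621 and 0.221, so the relation was not particular to neuronal RNAs. In oligodendrocytes the neuronal markers gave 0.0806 to 0.434. Microglial, oligodendrocyte, astrocyte, oligodendrocyte precursor, endothelial and blood markers stayed between -0.180 and 0.123 in neurons.

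The genes whose pattern was most like the share of the mitochondrial protein rows were mainly nuclear copies of mitochondrial genes. In this ranking the share of each other row was taken of the reads off the mitochondrial rows. Of 11658 rows above 0 in at least 50% of the neurons of all pools, ranked by the smallest rho over the 6 pools, Gm29216 was first (0.889), followed by Gm13340 (0.818), Gm28437 (0.775), Gm10925 (0.764), Gm28661 (0.747), Gm28439 (0.693) and Gm13341 (0.582). Copies of mitochondrial genes thus took the first 7 places. The deposited values show reads divided between mitochondrial rows and such copies. The likeness of the copies and their calls given next are therefore not independent of the mitochondrial rows. Of the 16 nuclear copies at 90% identity or more, 12 were tested. All 12 were called higher in microglia than in neurons (19.7% of all rows), with a median log2 difference of 3.83. The filter of the fits of Ehmt1Δ/+ against WT asks for fewer pools, and only 10 copies passed it in neurons. Some of the 12 thus entered through glia, which favoured this direction, and their calls are no support. The 3 with the highest levels, Gm29216, Gm28437 and Gm10925, differed by 3.88, 3.85 and 3.91.

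3 rows with no match of 75 bases or more to a mitochondrial transcript came next. Matches of these rows to other RNAs were not looked for, so the source of their reads is not known. Lars2 (chr9:123366927-123462666), the nuclear gene of the mitochondrial leucyl-tRNA synthetase, had a smallest rho of 0.427, a median of 0.651 and a largest of 0.717. Mir6236 (chr9:110281287-110281409) had a smallest rho of 0.376 and Gm24270 (chr9:56223715-56223771) of 0.307, both annotated as microRNA genes. Gm24270 is shorter than 75 bases, so it could not have had such a match and its lack of one says nothing. The next row was at 0.304, so the end of this list was not set off from the rest. Over all 11658 rows the median of the smallest rho was -0.100.

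Levels of Lars2 differed strongly by plate format. Its mean in neurons was 86.9 RPKM in WT and 40.6 in Ehmt1Δ/+ of the 96-well plates, against 393 in WT, 346 in Ehmt1Δ/+, 414 in iTg and 226.4 in Ehmt1Δ/+; iTg of the 384-well plates. In microglia of these pools it was 142.7, 65.8, 686, 836, 650 and 403 RPKM. Ehmt1Δ/+ neurons were below WT neurons in both formats, whereas for the mitochondrial rows they were below WT on the 96-well and above it on the 384-well plates. Mir6236 ranged from 1135 to 7309 RPKM and Gm24270 from 283.2 to 2242 RPKM over the neuronal pools, and both were lowest in Ehmt1Δ/+ of the 96-well plates.

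Nuclear genes that serve mitochondrial RNA were called in both directions between cell types. Of 34 measured genes for mitochondrial transcription, RNA processing and replication, 5 were higher and 4 lower in microglia than in neurons, with a median log2 difference of -0.29 (all rows -0.80, with 19.7% called higher and 44.7% lower). The 5 higher were Mgme1 (2.65), a mitochondrial exonuclease, Polg2 (1.79), the accessory subunit of the mitochondrial DNA polymerase, Ssbp1 (1.08), which binds single-stranded mitochondrial DNA, Twnk (0.82), the helicase, and Mterf3 (0.57). The 4 lower were Mterf2 (-4.38), Mterf1b (-1.89), Mterf1a (-1.67) and Lrpprc (-0.57), which stabilises mitochondrial mRNAs. Polrmt, the mitochondrial RNA polymerase, differed by 0.23 (SE 0.22, limma adjusted p = 0.391) and Fastk by 0.04 (SE 0.13, limma adjusted p = 0.784). In oligodendrocytes against neurons 5 were higher and 6 lower (all rows 13.3% higher and 39.1% lower). The filter of the fits of Ehmt1Δ/+ against WT asks for fewer pools. All 34 passed it in neurons, 28 in microglia and 31 in oligodendrocytes. Members that did not pass in a glial type entered through another type, which favoured lower calls there.

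Of the 76 nuclear genes of the respiratory chain, more were called lower than higher in glia, as was so for all rows tested. In microglia against neurons 5 were called higher and 24 lower (median -0.67, all rows -0.80), where 19.7% of all rows were higher and 44.7% lower. In oligodendrocytes 4 were higher and 23 lower (median -0.71, all rows -0.57), where 13.3% of all rows were higher and 39.1% lower. By the filter of the fits of Ehmt1Δ/+ against WT, all 76 passed in neurons, 57 in microglia and 58 in oligodendrocytes. Members that did not pass in a glial type entered through another type, which favoured lower calls there. Uqcrc1, a core protein of complex III, was at 20.3 to 31.6 RPKM in neurons and 7.96 to 20.2 in microglia over the pools, a log2 difference of -1.001 (SE 0.19, limma adjusted p = 0.000572). Cyc1, cytochrome c1, differed by -0.32 (SE 0.25, limma adjusted p = 0.282). Centring on the median of all rows turned the direction of this list, to 21 higher and 5 lower in microglia (median 0.22) and 17 higher and 3 lower in oligodendrocytes (median 0.15). The machinery list then had 14 higher and 1 lower in microglia and 15 higher and 0 lower in oligodendrocytes, and the mitochondrial rows remained higher under both scalings.

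Ribosomal protein genes split by compartment on the deposited scale. Of 80 cytosolic ribosomal protein genes tested, 25 were higher and 4 lower in microglia than in neurons (median 0.43), where 19.7% of all rows were higher and 44.7% lower, with Rpl10a higher by 1.499 (SE 0.15, limma adjusted p = 1.96e-06) and Rpl10 by 1.21 (SE 0.26, limma adjusted p = 0.00121). Rps15 differed by 0.32 (SE 0.33, limma adjusted p = 0.405). Of 78 mitochondrial ribosomal protein genes, 4 were higher and 25 lower against the same background (median -0.57), but after centring 22 were higher and 4 lower (median 0.32). Mrpl24 was among those higher on the deposited scale, at 38.4 to 59.4 RPKM in microglia and 16.3 to 23.6 in neurons, while Mrpl41 (-3.45) and Mrpl4 (-0.41) were among those lower. In oligodendrocytes against neurons 3 cytosolic genes were higher and 9 lower, and 2 mitochondrial ones were higher and 12 lower (all rows 13.3% higher and 39.1% lower), and after centring 32 against 1 and 12 against 0. By the filter of the fits of Ehmt1Δ/+ against WT, all 80 and 78 passed in neurons. In microglia 75 and 65 passed, and in oligodendrocytes 71 and 61. Entry of the others through another type favoured lower calls.

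Long noncoding RNAs kept in the nucleus fell in microglia relative to neurons for 8 of 11 members on the deposited scale (44.7% of all rows), among them Meg3 (-8.26), Snhg11 (-7.47) and Malat1 (-1.08), while Neat1 (3.74) and Tug1 (1.67) rose. Their median was -7.18, or -6.28 after centring. By the filter of the fits of Ehmt1Δ/+ against WT, all 11 passed in neurons but only 9 in microglia. Entry of the others through another type favoured lower calls. Of the 15 cytoplasmic mRNAs of neurons, 3 were higher in microglia and 7 lower (19.7% and 44.7% of all rows), with Actb, which encodes beta-actin, higher by 1.86 and Camk2a (-5.11), a neuronal kinase, and Snap25 (-3.98), a synaptic vesicle fusion protein, lower. After centring 8 were higher and 7 lower. By the same filter all 15 passed in neurons and 14 in microglia.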

How the data were processed

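Single nuclei from the cortex of 6 pools of 3 mice were sequenced with RamDA-seq, and 1 value per gene and nucleus was analysed. The authors deposited RPKM values, in which reads are scaled to the length of the gene and to the assigned reads of the nucleus. Per the study's methods, reads were trimmed with Fastq-mcf, aligned to mm10 with HISAT2 2.0.4 and counted with featureCounts (Subread 1.5.0) on a Gencode annotation at default settings. The authors removed 96-well nuclei by their ratio of mitochondrial and ribosomal reads among other measures, and 384-well nuclei by gene body coverage, and named cell types from clusters and markers. They tested single nuclei with edgeR, which was not repeated here, because nuclei of 1 pool are not replicates.

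The expression tables were read in Python 3.11.15 (numpy 2.4.6, pandas 2.3.3, SciPy 1.17.1) and joined to GENCODE M21 by versioned gene ID (49121 of 52636 matched, with all 37 mitochondrial rows among them). RPKM times gene length gave each row's share of the reads of a nucleus. The values came in steps of a hundredth of a read. Of values above 0, 68.5% on the 96-well plates and 74.6% on the 384-well plates were whole reads (tolerance 0.001). Reads on shared rows had thus been divided, although the methods give default settings. Depth per nucleus was recovered from these steps, and limits cover counting error only. Nuclear copies were found with BLAST+ 2.17.0+ among M21 transcripts (75 bases or more), and the cuts at 90% and 99% identity were set after the matches had been seen.

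For each cell type and pool the mean share of its nuclei was taken, and these means were compared by an exact sign-flip permutation test over pools. Gene levels were tested in R 4.3.3 with limma 3.58.1 on log2(mean RPKM + 0.1), which understates changes of low genes, with a filter at 10% of nuclei and Benjamini-Hochberg adjustment at 0.05 over all rows tested. The recovery of read totals, the sign-flip test and the form of the limma fits were tested on simulated data. Samples were grouped by the labels alone. All 37 rows are accounted for, with values for the 15 rRNA and protein rows and the 3 highest and 3 lowest tRNAs. For each list, values are given for the 3 members highest in neurons and for members called. The 10 rows most like the share of the mitochondrial protein rows and the 3 highest nuclear copies also have values. For the longer lists the members called are given as counts. A value that this rule would name in the respiratory chain list is not reported here. The members and lists were chosen with earlier results of these data known. Other pseudocounts, filters, scalings, averages and row sets were tried as alternatives. Figures were drawn with matplotlib 3.10.9.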

Additional observations from a re-analysis of the deposited data

Results flagged for a closer look

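The contrast between pools labelled Ehmt1Δ/+ and WT in the mitochondrial share had opposite signs in the 2 plate formats. The log2 ratio on the 384-well plates exceeded that on the 96-well plates by 3.04 in neurons, 3.85 in microglia and 2.82 in oligodendrocytes. The contrast of pools with and without CamKII-CreER likewise had opposite signs by genotype, the log2 ratio in Ehmt1Δ/+ minus that in Ehmt1+/+ being -2.17 in neurons, -2.48 in microglia and -2.32 in oligodendrocytes. Each value rests on 4 pools with 1 value each, and the difference was not tested. Both sets share the WT and Ehmt1Δ/+ pools of the 384-well plates and are not independent of each other.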

How the results depend on the processing

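The order of the 3 cell types and of both neuron classes remained the same in 6 of 6 pools, with an exact permutation p of 0.03125, under 9 alternatives over all pools for the cell types and 10 for the neuron classes. For microglia minus neurons the difference in percentage points ran from 0.550 (protein genes only) to 5.43 (share of summed RPKM), and was 2.02 with rows without a near-identical copy and 2.57 with those copies added, an alternative chosen after seeing the data. The 96-well pools alone gave 0.809 points and the 384-well pools alone 3.18, with no test.

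Of 456 gene-level differences between cell types recomputed, 444 kept their direction and call, 12 lost the call and 0 turned. With the mean of log2 values over nuclei, 10 of 19 rows were called higher in oligodendrocytes than in neurons. Keeping nuclei of at least 291080 reads was an alternative to which only the 96-well pools could contribute. It gave 19, 18 and 17 calls for microglia against neurons, oligodendrocytes against neurons and microglia against oligodendrocytes. This set a lower limit only, so it did not make depth equal between cell types. Without a filter 21, 20 and 21 of 37 were called. The causes were not tested.

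The median log2 ratio of Ehmt1Δ/+ to WT over the 37 rows was -0.32 in neurons, -0.13 in microglia and -0.07 in oligodendrocytes across both formats, against 1.09, 1.78 and 1.18 in the 384-well pools alone. The median for CamKII-CreER in neurons was 0.25 over both genotypes and -0.77 in Ehmt1Δ/+ alone. Leaving out each pool in turn gave 0 calls among the mitochondrial rows, while over all rows of oligodendrocytes the count went from 0 to 7 without WT (96-well), 39 without Ehmt1Δ/+ (96-well), 2 without WT (384-well) and 1 without Ehmt1Δ/+ (384-well). Those fits take the lone pool to vary like the others. They also leave out the block for plate format, or for Ehmt1 genotype with CamKII-CreER. Their counts thus do not show the effect of removing a pool alone. Over all rows, calls for microglia against neurons went from 14639 to 23344 without a filter, and for oligodendrocytes against neurons from 11907 to 19479 without a filter and 19569 with the mean of log2 values. With that mean 4 rows of microglia and 2 of oligodendrocytes were called between genotypes, 2 of oligodendrocytes with a trended prior, and 9 for CamKII-CreER after centring. No paired analysis was possible because replicate numbers, given in accession order, only name the nuclei, and the pairing of cell types used above is by pool. Shares below the limits given for nuclei at 0 could not be seen.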
